A study of Mus musculus with 9 samples.

Results

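The flavin-containing monooxygenases Fmo1, Fmo2, Fmo4 and Fmo5 were followed by their RNA levels in mouse liver. Rows were matched by gene name, and the 4 genes took up 5 of the 52151 rows of the gene table. Total liver RNA was depleted of ribosomal RNA and sequenced in a strand-specific way in 9 libraries. The pair-fed group (PF, 3 libraries) received an isocaloric control liquid diet, and the alcohol-fed group (AF, 3 libraries) received the Lieber-DeCarli alcohol diet, in which the alcohol share is raised stepwise. The AF with MNA group (3 libraries) had the alcohol diet and a daily intraperitoneal injection of MNA at 50 mg/kg. The labels do not spell out MNA, and no vehicle injection is described for the PF or AF group, so that the injection and the agent cannot be told apart. All mice were 8 weeks old by the labels and had been fed for 5 weeks. The study's methods describe male C57BL/6J animals that were fasted before the livers were taken. These methods cover a pair-fed and an alcohol-fed group and do not describe the AF with MNA mice. The strain field of the labels reads C57BL/6 for PF and AF, whereas it counts upward from C57BL/7 to C57BL/9 over the 3 AF with MNA libraries. The labels number the libraries of a group without saying whether each is 1 mouse, so the p-values below measure the spread between libraries.

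Flavin-containing monooxygenases (FMOs) are enzymes of the endoplasmic reticulum that hold FAD, take electrons from NADPH and use molecular oxygen to oxidise soft nucleophiles, mostly nitrogen and sulphur atoms in drugs, amines and thioethers. They work beside the cytochromes P450 but do not need a reductase partner. FMO1 is a broad oxygenase of rodent liver and kidney and also converts hypotaurine to taurine. FMO2 is best known as the lung form. FMO4 is a little-studied form of low abundance. FMO5 departs from the others in its chemistry, since it inserts oxygen next to a carbonyl group, and it is an abundant form of the liver.

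In GRCm38 coordinates (GENCODE M21) 3 of the members lie in 1 cluster on the minus strand of chromosome 1. Fmo4 spans chr1:162793188-162813972, Fmo1 spans chr1:162829561-162866610 and Fmo2 spans chr1:162874317-162898726. Fmo6 (chr1:162916551-162937515) lies next to Fmo2. Fmo5 lies apart, on the plus strand of chromosome 3 (chr3:97628804-97655282). The rows used for the 4 members held 8 (Fmo1), 6 (Fmo2), 6 (Fmo4) and 5 (Fmo5) known transcripts, each of the named gene only. A further row under the name Fmo1, made of assembled sequence alone, was between 0 and 2.12 FPKM in all 9 libraries and entered no test. FPKM is the number of fragments scaled to transcript length and to library size, a level per length. FMO genes are paralogs, and how reads shared between them were assigned is not given in the sources used here.

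RefSeq windows (GRCm38.p6, 250 bases before to 50 bases after a RefSeq start) matched 3 of the 4 members, with 2 windows for Fmo2. Only the first Fmo2 window is placed at the outer end of its gene, with a start 32 bases upstream of the GENCODE gene start. The starts of the other windows lie inside the GENCODE genes, 233 bases downstream of the gene start for the second Fmo2 window, 1423 bases for Fmo4 and 215 bases for Fmo5, where the RefSeq start is the first base of GENCODE exon 2. These 3 windows therefore do not show the sequence upstream of the GENCODE gene start alone. All windows were searched on both strands for the core of the xenobiotic response element, GCGTG, and for the CCAAT box, spelled CCAAT. None of the 4 member windows held GCGTG, against 32.4% of 32851 windows of the same length. CCAAT was present in the Fmo4 and Fmo5 windows, against 37.4% of all windows, in both at bases that lie inside the GENCODE gene. A missing match says only that the letters are not in the window. GC content was 41.3% in the first Fmo2 window, with a median of 52.7% over all windows. This window of Fmo2, the member with the largest fold difference under alcohol, is printed 5′ to 3′ on the gene's strand, in lower case throughout since it held neither motif.
Fmo2 promoter, chr1:162898709-162899008, minus strand: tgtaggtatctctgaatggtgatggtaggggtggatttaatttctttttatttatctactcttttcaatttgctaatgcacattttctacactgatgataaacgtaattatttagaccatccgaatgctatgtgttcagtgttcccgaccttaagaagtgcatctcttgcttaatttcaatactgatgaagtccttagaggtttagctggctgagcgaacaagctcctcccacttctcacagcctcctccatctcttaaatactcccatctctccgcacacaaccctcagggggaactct

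The gene level files give no read totals. The constant that links whole junction reads to the deposited normalised signal of circular RNAs, which is proportional to depth, ranged from 8.67 to 12.3 over the 9 libraries, so that depths lay within 1.5 times of each other. Summed FPKM of the predicted intronic transcripts was 9433 in AF replicate 3 and 8934 in AF with MNA replicate 1, against 2477 to 4937 in the other 7 libraries. Values without these libraries are given where they change a result. Hepatocyte markers were high in each library, with a summed level of 13189 to 20382 FPKM for the 4 markers matched by symbol (Alb, Apoa1, Ttr and Cps1). In bulk liver, fewer cells of a type and less RNA per cell cannot be told apart.

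Fmo5 was the most abundant member in each of the 9 libraries. It made up 72.1% to 86.9% of the summed FPKM of the 4 members. In the PF group the mean level of Fmo5 was 110 FPKM ± 32.5 (SD, n = 3), that of Fmo1 was 17.9 ± 2.10, that of Fmo2 was 1.70 ± 1.298 and that of Fmo4 was 1.38 ± 0.639. Fmo5 stood 6.16-fold above Fmo1 and Fmo1 stood 10.6-fold above Fmo2, with no overlap between libraries at either step. Fmo2 and Fmo4 overlapped in PF and differed by 1.23-fold in their means. The order Fmo5, Fmo1, Fmo2, Fmo4 was the same in all 3 groups. In AF the Fmo2 libraries lay above the Fmo4 libraries (lowest Fmo2 level 3.56 FPKM, highest Fmo4 level 2.60 FPKM), whereas in AF with MNA they overlapped again, with a lowest Fmo2 level of 2.70 FPKM and a highest Fmo4 level of 2.79 FPKM. As a share of the 4 members, Fmo2 took 0.697% to 1.85% in PF, 1.82% to 5.17% in AF and 1.12% to 6.89% in AF with MNA.

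**Figure D1:**
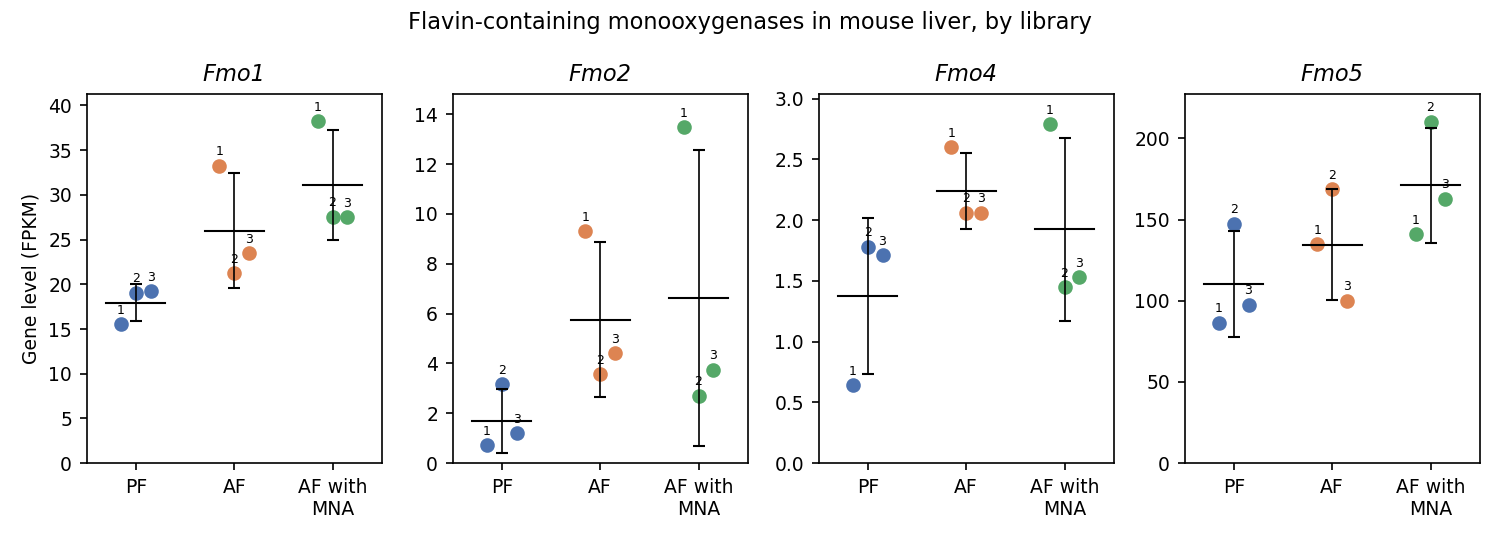
Level of each member in FPKM (vertical axis, 1 scale per gene) in the 3 groups (horizontal axis), with 1 numbered point per library, the group mean as a bar and the SD as whiskers. Fmo2 runs from 0.72 to 3.17 FPKM in PF, 3.56 to 9.31 in AF and 2.70 to 13.47 in AF with MNA, whereas Fmo5 overlaps between all groups.

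AF was set against PF to see what chronic alcohol feeding changed. Fmo2 was higher in AF. Its levels were 0.72, 3.17 and 1.20 FPKM in PF replicates 1 to 3, against 9.31, 3.56 and 4.40 FPKM in AF replicates 1 to 3. The lowest AF library was only just above the highest PF library, and the groups did not overlap. The ratio of mean levels was 3.39, a log2 fold change of 1.76, and the limma difference on the log2(FPKM + 1) scale was 1.34 ± 0.42 (SE, 95% interval 0.33 to 2.35). Fmo2 was the only member past the threshold (unadjusted limma p under 0.05 and a log2 ratio of mean FPKM above 1 or below -1), which 4.3% of the 12268 genes tested passed in either direction. Its adjusted p by limma was 0.325 and its exact permutation p was 0.1, the smallest that 3 against 3 libraries can give. The call rested on PF replicate 1, the lowest library, since without it the log2 fold change was 1.40 and the threshold on p was missed. The fold change was 1.23 without AF replicate 1, the highest library, and 2.58 without PF replicate 2.

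Fmo1 and Fmo4 had higher levels in every AF library than in any PF library, below the fold threshold. Fmo1 levels were 15.52, 19.05 and 19.24 FPKM for PF, against 33.28, 21.23 and 23.48 FPKM for AF. AF replicate 1 was well above the other two AF libraries, and the gap between the groups was small. The AF mean of 26.0 ± 6.41 FPKM (SD, n = 3) was 1.45-fold that of PF, and the limma difference was 0.49 ± 0.20 (95% interval 0.02 to 0.96, adjusted p by limma 0.408). Fmo4 levels were 0.64, 1.78 and 1.71 FPKM for PF, against 2.60, 2.06 and 2.06 FPKM for AF. The groups were separated again, by 0.28 FPKM, and PF replicate 1 was far below the other PF libraries. The ratio of mean Fmo4 levels was 1.63 and the limma difference was 0.48 ± 0.23, with a 95% interval of -0.06 to 1.03 that includes 0 and an adjusted p by limma of 0.476. The Fmo4 log2 fold change was 0.70 with all libraries and 0.36 without PF replicate 1, whereas that of Fmo1 was 0.54 and fell to 0.32 without AF replicate 1.

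Fmo5 did not separate AF from PF. Its levels were 86.47, 147.44 and 97.54 FPKM for PF, against 134.99, 168.54 and 99.96 FPKM for AF, and AF replicate 3 lay below PF replicate 2. The ratio of means was 1.22. The limma difference of 0.29 ± 0.27 had a 95% interval of -0.37 to 0.95, with an adjusted p by limma of 0.728 and an exact permutation p of 0.4. Over all alternatives the Fmo5 log2 fold change ran from 0.09 to 0.55.

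All 4 members had a positive log2 fold change, against 46.3% of all genes tested. The median of the members was 0.62, against -0.03 over all genes tested. Fmo1, Fmo2 and Fmo4 moved together over the 9 libraries (r from 0.74 to 0.90), so the members are not independent observations. Libraries of AF lay above those of PF without overlap for 3 of the 4 members, against 8.18% of all genes. At an unadjusted limma p under 0.05 stood 2 of the 4 (Fmo1 and Fmo2), against 11.7% of all genes. At an adjusted p under 0.05 stood 0 of the 4, against 0.326% of all genes.

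**Figure D2:**
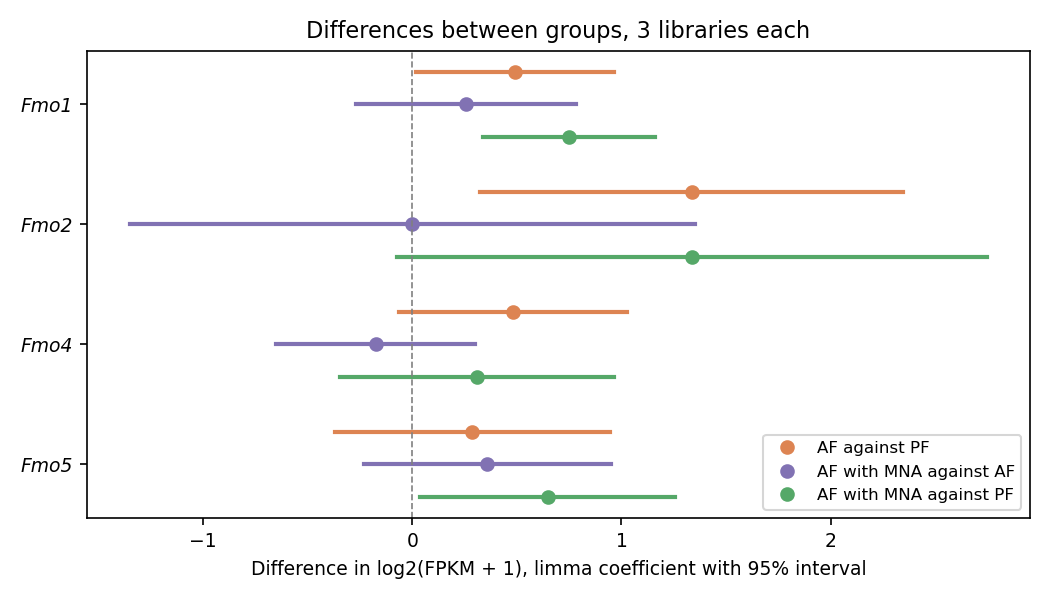
Difference in log2(FPKM + 1) between groups (horizontal axis, limma coefficient as a point and its 95% interval as a line) for each member (vertical axis) in the 3 comparisons, with 3 libraries per group. The interval of Fmo2 for AF against PF (0.33 to 2.35) lies above 0, and all 4 intervals for AF with MNA against AF include 0.

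AF with MNA was set against AF to see what the injection of MNA added to the alcohol diet. None of the 4 members differed past the spread between libraries. Fmo1 levels were 38.23, 27.54 and 27.49 FPKM in AF with MNA (mean 31.1 ± 6.19, SD, n = 3), against an AF range of 21.23 to 33.28 FPKM. The limma difference for Fmo1 was 0.26, with a 95% interval of -0.27 to 0.78. Fmo2 levels were 13.47, 2.70 and 3.75 FPKM in AF with MNA, so that 1 library was the highest of all 9 and another lay below every AF library. The group means of Fmo2 were 6.64 ± 5.94 and 5.76 ± 3.11 FPKM (SD, n = 3 each), and the limma interval ran from -1.35 to 1.35. This interval includes more than a doubling of FPKM + 1 in either direction. The direction for Fmo2 turned with a single library, as its log2 fold change was 0.21 with all libraries, -0.84 without AF with MNA replicate 1 and -0.05 without AF replicate 2. Without both libraries of high intronic signal (AF replicate 3 and AF with MNA replicate 1) it was -0.997, with an adjusted p by limma of 0.777.

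Fmo4 levels were 2.79, 1.45 and 1.53 FPKM in AF with MNA (mean 1.92 ± 0.752, SD, n = 3), which lie on both sides of the AF range of 2.06 to 2.60 FPKM. Fmo4 was the only member with a negative log2 fold change (-0.22), and its limma interval was -0.65 to 0.30. The Fmo4 value ran from -0.59 without AF with MNA replicate 1 to -0.05 without AF with MNA replicate 2, and was -0.645 without both libraries of high intronic signal. Fmo5 levels were 140.90, 210.21 and 162.75 FPKM (mean 171 ± 35.4, SD, n = 3) against 99.96 to 168.54 FPKM in AF. The limma interval for Fmo5 was -0.23 to 0.95. Over all alternatives, the log2 fold change ran from 0.01 to 0.48 for Fmo1 and from 0.17 to 0.54 for Fmo5. Adjusted p values by limma were 0.966 to 1.00 for the 4 members and exact permutation p values were 0.3 to 1. In this comparison 0 of the 4 members passed the threshold (1.98% of 12214 genes), 0 an unadjusted limma p of 0.05 (5.22% of genes) and 0 an adjusted one (0.0491%), and 0 were higher without overlap (5.53%).

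AF with MNA was also set against PF, which shares its PF libraries with the first comparison. Fmo1 was the only member whose libraries did not overlap, as the lowest AF with MNA library (27.49 FPKM) lay well above the highest PF library (19.24 FPKM). Its mean was 1.73-fold that of PF, with a limma difference of 0.75 ± 0.17 (95% interval 0.34 to 1.16), an adjusted p by limma of 0.155 and an exact permutation p of 0.1. Fmo5 was 1.55-fold higher in the mean, with a limma interval of 0.04 to 1.26 and an adjusted p by limma of 0.325. AF with MNA replicate 1 (140.90 FPKM) still lay below PF replicate 2 (147.44 FPKM). Fmo2 had the largest ratio of means, 3.91, but its interval of -0.07 to 2.75 included 0 and its adjusted p by limma was 0.368. Without AF with MNA replicate 1 the Fmo2 log2 fold change dropped from 1.97 to 0.93. It was 2.79 without PF replicate 2 and 2.34 without AF with MNA replicate 2, and in these cases it passed the threshold. Fmo4 was 1.40-fold higher in the mean, with an interval of -0.35 to 0.96. Its log2 fold change of 0.48 was 0.11 without AF with MNA replicate 1 and 0.14 without PF replicate 1. Over the members, 0 of 4 passed the threshold (3.89% of 12276 genes) or an adjusted limma p of 0.05 (0.432%), 2 of 4 (Fmo1 and Fmo5) had an unadjusted limma p under 0.05 (14.5%), and 1 of 4 was higher without overlap (9.54%).

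AF replicate 1 was the highest AF library and AF with MNA replicate 1 the highest AF with MNA library for Fmo1, Fmo2 and Fmo4. Within AF with MNA, the highest Fmo2 level was 3.59-fold and the highest Fmo4 level 1.82-fold above the next library. Fmo5, on chromosome 3, was highest in replicate 2 of each group. In PF, replicate 2 was also the highest library for Fmo2 and Fmo4, and replicate 3 for Fmo1. PF replicate 1 was the lowest PF library for all 4 members. Over the 9 libraries, Pearson's r of log2(FPKM + 1) was 0.90 between Fmo1 and Fmo2, 0.87 between Fmo2 and Fmo4 and 0.74 between Fmo1 and Fmo4, against 0.30 to 0.49 between Fmo5 and the other members. These are descriptions over 9 points that share group differences and library effects. Of the 9 protein-coding genes within 500000 bp on either side of the chromosome 1 members and outside the FMO family, 4 were tested (Mettl13, Vamp4, Prrc2c and Gorab). Of these, 0 passed the threshold in any of the 3 comparisons. The shares of all genes were 4.3% (AF against PF), 1.98% (AF with MNA against AF) and 3.89% (AF with MNA against PF). A count of 0 of 4 is near these shares and sets the flanking genes apart from no others, since Fmo1 and Fmo4 did not pass either. The log2 fold changes of the 4 flanking genes for AF against PF were between -0.17 and 0.18.

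**Figure D3:**
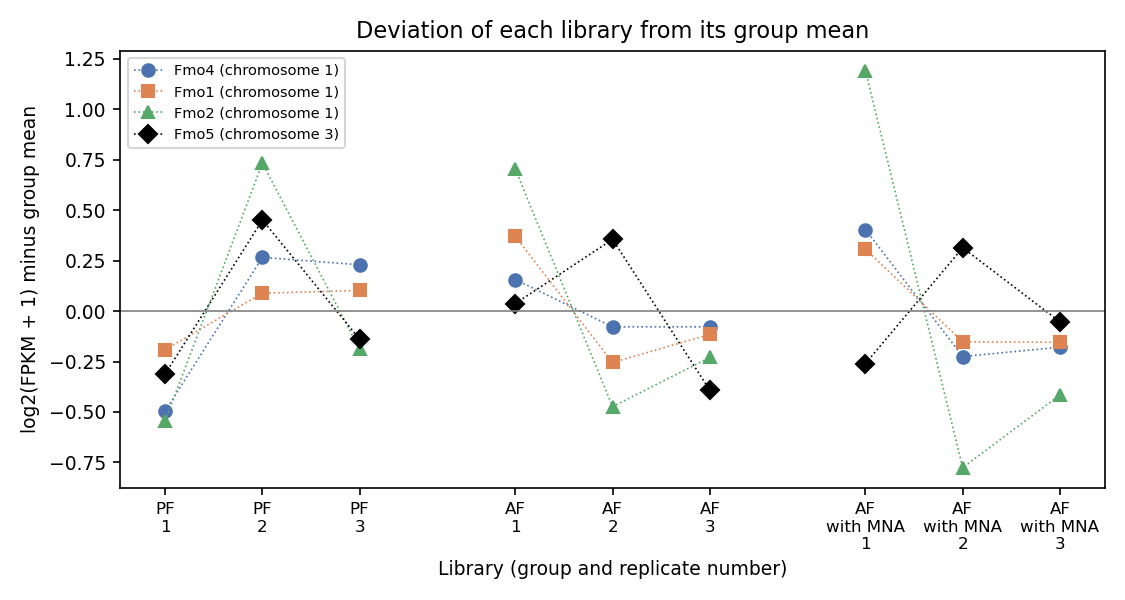
Deviation of log2(FPKM + 1) from the mean of the group (vertical axis) in each of the 9 libraries (horizontal axis), with 1 symbol per gene and dotted lines that join the libraries of a group. The chromosome 1 genes lie above 0 together in AF replicate 1 and in AF with MNA replicate 1. Fmo5 peaks in replicate 2 of each group, as Fmo2 and Fmo4 do in PF.

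The genes whose pattern over the 9 libraries was most like that of each member were named by Pearson's r among 12248 genes that averaged 0.5 FPKM or more. For Fmo1 these were Pitrm1 (r = 0.99), a mitochondrial peptidase, Mmp19 (0.96), a matrix metalloproteinase, and Fli1 (0.95), an ETS transcription factor of blood and endothelial cells. For Fmo2 they were Epas1 (0.96), which encodes the hypoxia-inducible factor HIF-2 alpha, Rpf1 (0.96), a ribosome assembly factor, and Ahsg (0.96), the secreted protein fetuin-A. For Fmo4 they were Hlcs (0.95), which attaches biotin to carboxylases, Col1a2 (0.95), a collagen chain, and Cps1 (0.95), the first enzyme of the urea cycle. For Fmo5 they were Snw1 (0.94), a splicing and transcription cofactor, and the unnamed genes Gm26718 (0.89) and Gm45767 (0.89). Pitrm1 ranged from 5.97 to 9.42 FPKM and was highest in AF with MNA replicate 1, as Fmo1 was. Epas1 was likewise highest in AF with MNA replicate 1 (16.29 FPKM) and AF replicate 1 (14.70 FPKM).

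Of the 4 other FMO genes listed, Fmo6 was matched by symbol. It was at or below 0.03 FPKM in every library and was not tested.

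The counts for the cofactor, taurine, oxidase and receptor lists stand beside shares of 4.3% (AF against PF), 1.98% (AF with MNA against AF) and 3.89% (AF with MNA against PF) of all genes past the threshold in either direction, and with 4 to 8 genes tested in each of these lists a single gene is a larger share than these. Among the genes that supply the cofactors, 0 of 5 NADPH genes tested rose and 1 fell in AF against PF, with a median log2 fold change of -0.06. The gene that fell was Me1, malic enzyme, at 24.69 to 32.01 FPKM in AF and 43.65 to 63.66 FPKM in PF (log2 fold change -1.04, adjusted p by limma 0.125). G6pdx, the first enzyme of the pentose phosphate pathway, had a log2 fold change of 0.55, H6pd, its counterpart in the endoplasmic reticulum, -0.24 and Pgd, a later enzyme of the pathway, 0.43, and none of these passed the threshold. In AF with MNA 0 of the 5 passed against AF and 0 of 5 against PF. Of 4 FAD genes tested, 0 passed in AF against PF (median 0.20). Against AF, 1 of 4 was higher in AF with MNA, namely Rfk, the riboflavin kinase, at 20.91, 16.83 and 15.48 FPKM against 3.25, 2.48 and 11.13 FPKM (log2 fold change 1.66, adjusted p by limma 0.940). Against PF, 2 of 4 were higher, Rfk (1.32, adjusted p by limma 0.318) and Slc52a2, a riboflavin transporter (1.02, adjusted p by limma 0.263). PF replicate 1 had 15.64 FPKM of Rfk, inside the AF with MNA range, and the other PF libraries 3.52 and 2.13 FPKM. The other tested members of the list, Flad1, the FAD synthase (-0.16), and Slc25a32, a mitochondrial carrier (0.55), gave these log2 fold changes in AF against PF and did not pass. Slc52a3, also in the list, was at 0.02 to 0.42 FPKM and was not tested.

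In the list of taurine synthesis and use, 1 of 5 genes tested fell in AF and 0 rose. Csad, which decarboxylates cysteine sulphinate on the way to hypotaurine, was at 2.60 to 5.25 FPKM in AF and 6.83 to 16.27 FPKM in PF (log2 fold change -1.48, adjusted p by limma 0.270). Its log2 fold change in AF with MNA against PF was -1.09, and it did not pass there. Cdo1, the cysteine dioxygenase that precedes it, was at 244 to 480 FPKM in PF and 310 to 587 FPKM in AF and did not pass. Slc6a6, the taurine transporter, had a log2 fold change of -0.31 in AF against PF. Ado, the cysteamine dioxygenase of the other route to hypotaurine, is listed at 0 in 7 of the 9 libraries and is given no fold. In AF with MNA 0 of the 5 passed against AF and 0 of 5 against PF.

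Of 8 other oxidases outside the P450 family, 1 rose and 1 fell in AF against PF (median log2 fold change 0.29). Aox3, an aldehyde oxidase of liver, was at 65.80, 60.57 and 53.76 FPKM for PF, against 22.99, 21.50 and 23.01 FPKM for AF. The groups were far apart, and the log2 fold change was -1.42 with an adjusted p by limma of 0.0141. It was also lower in AF with MNA than in PF (-1.24, adjusted p by limma 0.0445). Nqo1, a quinone reductase, was at 1.26 to 2.23 FPKM in PF, 4.09 to 10.05 FPKM in AF and 4.50 to 6.91 FPKM in AF with MNA. Its log2 fold changes against PF were 1.84 (adjusted p by limma 0.190) and 1.63 (adjusted p by limma 0.0903). Aox1, another aldehyde oxidase, had a log2 fold change of 0.81 and Maoa, monoamine oxidase A, one of 0.86 in AF against PF, without passing. Against AF, 0 of the 8 passed in AF with MNA, and against PF 1 rose and 1 fell, Nqo1 and Aox3. Of the 5 genes tested from the list of the aryl hydrocarbon receptor and its targets, 1 rose in AF, which was again Nqo1. Cyp1a2, the main liver target, was at 295 to 353 FPKM in PF and 501 to 704 FPKM in AF, a log2 fold change of 0.97 just under the fold threshold. Ahr, the receptor (-0.17), and Arnt, its partner (0.15), did not pass. In AF with MNA, 0 of the 5 passed against AF and 1 (Nqo1) rose against PF.

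Markers of other liver cells were at low levels beside the hepatocyte markers. Summed over 5 sinusoidal endothelial markers, the level was 19.7 to 24.3 FPKM in PF, 24.9 to 36.2 FPKM in AF and 30.4 to 33.8 FPKM in AF with MNA. Every PF sum lay below every sum of the other groups, only just so for AF. Of the single markers, only Pecam1 was higher in AF than in PF without overlap (8.18% of all genes). In AF with MNA against PF, Clec4g, Kdr and Pecam1 were (9.54% of all genes). The median log2 fold change of the 5 endothelial markers was 0.37 for AF against PF and 0.61 for AF with MNA against PF. The part of these markers in the Fmo1, Fmo2 and Fmo4 differences was not tested. The 5 Kupffer cell markers summed to 56.8 to 69.3 FPKM in PF, 44.2 to 82.1 FPKM in AF and 56.1 to 73.3 FPKM in AF with MNA. The 6 stellate and fibroblast markers, with both rows under the name Reln added, summed to 29.7 to 31.1 FPKM in PF, 26.3 to 36.7 FPKM in AF and 27.7 to 39.8 FPKM in AF with MNA. The 4 cholangiocyte markers summed to between 1.14 and 2.46 FPKM. The 3 adipocyte markers matched by symbol summed to at most 0.19 FPKM, and Adipoq was at 0 in all PF and AF libraries. Of the cholangiocyte markers only Sox9 was high enough to be tested, and none of the adipocyte markers was. No marker that was tested passed the threshold in any of the 3 comparisons.

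Among the long noncoding transcripts of the table used here, 0 overlapped a member. Circular RNAs, which form when the end of an exon is joined back to an earlier exon, came from Fmo5 (5 circRNAs) and Fmo1 (1 circRNA) among 4486 in the table. The Fmo1 circle had 2 reads, both in PF replicate 3. One Fmo5 circle was seen in every library and ranked 41st of 4486 by its 42 junction reads. It spans chr3:97635511-97645920 and joins the end of exon 7 to the start of exon 3 of the 9-exon transcript ENSMUST00000107050. The circle holds 5 exons, 1048 bases in all, and every one of these exons is coding. Its junction is printed 5′ to 3′, with 30 bases from the end of exon 7 in lower case and 30 bases from the start of exon 3 in capitals.
Fmo5 circRNA junction: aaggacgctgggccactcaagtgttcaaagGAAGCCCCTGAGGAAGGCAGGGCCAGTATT
Its read counts were 2, 3 and 4 for PF, then 7, 3 and 3 for AF, then 10, 8 and 2 for AF with MNA, and all 3 groups overlapped. As the deposited normalised signal, which is scaled for depth, the values ran from 0.201 to 0.435 in PF, 0.269 to 0.747 in AF and 0.231 to 0.811 in AF with MNA. The Fmo5 gene level in FPKM was highest in replicate 2 of each group, which was not the library with the most reads of the circle in any group. In PF this rests on 3 against 4 reads. A second Fmo5 circle, of exons 3 to 6, had 1 and 6 reads in PF replicates 2 and 3 and none in the other 7 libraries. No test was made at these counts.

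**Figure D4:**
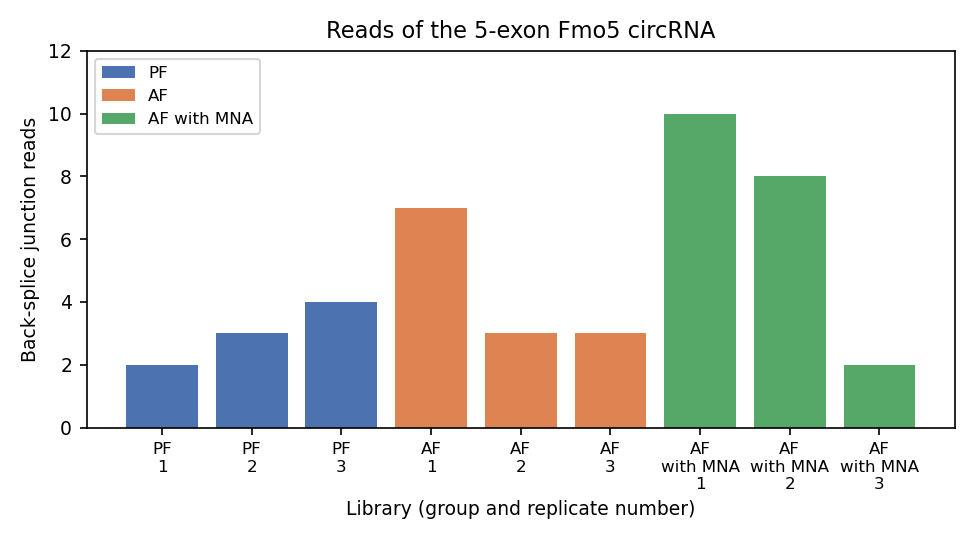
Back-splice junction reads (vertical axis) of the 5-exon Fmo5 circRNA in each of the 9 libraries (horizontal axis), coloured by group. Counts are 2 to 4 in PF, 3 to 7 in AF and 2 to 10 in AF with MNA, so that the groups overlap.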

How the data were processed

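Liver RNA of 9 libraries (3 PF, 3 AF and 3 AF with MNA) was measured. Per the labels' processing notes the authors used cutadapt 1.9, FastQC, HISAT2, TopHat, StringTie 1.3.4 and edgeR. The genome build is not given in the sources used here; of 7841 known lncRNAs found in GENCODE M21 (GRCm38), 98.3% had the same start and end. The authors deposited FPKM values for genes and lncRNAs, and for circRNAs raw junction read counts and a signal normalised for depth. Precision is limited by 3 libraries per group, and counting depth of the FPKM values is unknown.

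Of 52151 gene rows, the 26345 that carry both a gene name and an annotated transcript were kept. Tests were run on genes averaging 0.5 FPKM or more across both groups of a comparison, on log2(FPKM + 1), by limma 3.58.1 (eBayes with an intensity trend, R 4.3.3), two-sided, with Benjamini-Hochberg adjustment over all genes tested. Fold changes are log2 ratios of mean FPKM. The limma difference is on the log2(FPKM + 1) scale and understates changes of low genes. A gene was called at an unadjusted limma p under 0.05 and a log2 fold change above 1 or below -1, the limits that the study applied to p-values from Ballgown for lncRNAs. Two-sided exact permutation tests over libraries were added per member. The limma step was tested on simulated data. Figures were drawn with matplotlib 3.10.9 in Python 3.11.15.

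The members and gene lists were chosen with earlier results of these data known. Named genes were the members, the 3 genes of highest Pearson r with each member, and up to 4 genes per list in list order with those past the threshold first. The flanking genes, the order of libraries within groups and a few further examples were added after values had been seen. Symbols without a match were Fmo9, Fmo12, Fmo13, Pgls, Tf and Lep. Alternatives covered the pseudocount, filters on low values, scaling, trend, pooled spread, the replicate block, the fold measure and leaving out each library.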

Additional observations from a re-analysis of the deposited data

How the results depend on the processing

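Of the 170 values of a member recomputed under an alternative, 163 kept their direction and their side of the threshold. Much of this count was fixed in advance. The pseudocount, low-value filters, trend, pooled spread and replicate block cannot alter a log2 ratio of mean FPKM, so the direction could not turn there. Fmo1, Fmo4 and Fmo5 never reached the fold threshold under any alternative (highest log2 fold change 0.93, Fmo4 in AF against PF). For Fmo2 in AF against PF, leaving out 1 library at a time gave log2 fold changes from 1.23 to 2.58, with the call lost without PF replicate 1 (1.40). For Fmo2 in AF with MNA against AF, leaving out 1 library gave -0.84 to 0.74, and the sign turned without AF replicate 2 (-0.05), without AF with MNA replicate 1 (-0.84) and without both libraries of high intronic signal (-0.997, an alternative chosen after seeing the data). For Fmo2 in AF with MNA against PF, leaving out 1 library gave 0.93 to 2.79, with the threshold passed without PF replicate 2 (2.79), without AF with MNA replicate 2 (2.34) and with the spread pooled over all 9 libraries (1.97). Fmo4 fell below a minimum of 2 FPKM in both comparisons with PF and had no value there.

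The number of genes past the threshold, in the order AF against PF, AF with MNA against AF and AF with MNA against PF, was 527, 242 and 477. It was 1183, 676 and 1105 with any value above 0 kept, 265, 81 and 228 at a minimum of 2 FPKM, and 249, 99 and 229 with the limma coefficient as the fold measure. For AF against PF, leaving out 1 library gave 516 to 764, with 764 without AF replicate 3. For AF with MNA against AF, leaving out 1 library gave 211 to 367, with 367 without AF replicate 3, and leaving out both libraries of high intronic signal gave 470. Same-numbered libraries did not deviate together (r from -0.08 to 0.061). Such correlations cannot show whether the design paired the libraries, and the numbers in the labels do not settle it. With the replicate number as a block the counts were 562, 260 and 488, those at an adjusted p under 0.05 were 18, 1 and 0 in place of 40, 6 and 53, and no member's call changed. Leaving out 1 library gave 25 to 47, 6 to 13 and 24 to 47 genes at an adjusted p under 0.05 (13 without AF replicate 2, 24 without AF with MNA replicate 3), and pooling the spread over all 9 libraries gave 86, 0 and 50. With 3 libraries per group, intervals of the member differences stayed wide.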
